A study of Ovis aries with 41 samples.

Results

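The HOXD genes are one of the 4 mammalian clusters of homeobox transcription factors, and 7 of them (HOXD3, HOXD4, HOXD8, HOXD9, HOXD10, HOXD11 and HOXD13) were followed here along the skin of the adult sheep tail. They were picked by symbol from the 31182 genes of the deposited count table, and all 7 symbols were found in it. The samples were skin biopsies of 7 adult rams of the Improved Jezersko–Solčava breed, taken at the tail base, the mid-tail and the tail tip. Of these rams, 4 (835507, 871772, 871784 and 871932) were homozygous for the ancestral allele of HOXB13 (A/A, short tails) and 3 (871787, 871868 and 871869) for the derived allele, which carries an insertion in the HOXB13 promoter (D/D, long tails). The labels name no treatment and no other allele, and the tip of a D/D tail lies farther from its base than the tip of an A/A tail. There were 2 libraries for a ram at a position, but 1 for ram 871869 at the mid-tail. The 41 libraries held 9177395 to 23431409 counts each and were summed to 21 values, 1 for each ram and position.

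HOX genes lie in clusters in which the order of the genes along the chromosome matches the order in which the embryo switches them on, from head to tail. Genes at the 3′ end (HOXD3, HOXD4) act in the neck and hindbrain region, the central gene HOXD8 acts in the trunk, and the 5′ genes (HOXD9 to HOXD13) act in the lumbar, sacral and caudal region and again in the limbs, digits and external genitalia. Adult fibroblasts of the skin are known to keep a pattern of HOX expression that reflects their site on the body. Genes with the same number in different clusters (HOXA10, HOXC10 and HOXD10, for example) are paralogs, copies that arose when the cluster was duplicated, and often share functions.

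On the ARS-UI_Ramb_v3.0 assembly the cluster lies on chromosome 2. In the order from 3′ to 5′, HOXD3 spans chr2:133957983-133976780, HOXD4 chr2:133980378-133999724, HOXD8 chr2:134002057-134006619 and HOXD9 chr2:134011480-134013666. HOXD10 spans chr2:134016641-134019752 and lies inside the annotated span of HOXD11 (chr2:134014400-134030746), and HOXD13 spans chr2:134040237-134043683. The 7 genes fall within 85.7 kb. Because exons and transcript lengths were not used here, the levels of different HOXD genes were not ranked against each other, and how reads were divided between the overlapping spans of HOXD10 and HOXD11 was not examined.

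Of the 7 genes, 6 had enough counts to be tested between positions, among 19444 genes tested in all, and HOXD13 was too low to judge in that test. The 6 tested genes were detected in all 41 libraries, with summed counts over the libraries of 927 for HOXD3, 3053 for HOXD4, 3204 for HOXD8, 2058 for HOXD9, 821 for HOXD10 and 344 for HOXD11. HOXD13 had 43 counts in all, spread over 16 of the 41 libraries. The other homeobox genes of the region were lower still. HOXD1 had 18 counts, HOXD12 had 1, and EVX2, a homeobox gene next to HOXD13, had 4, so none of these was tested.

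The tissue matched its label. All 10 dermal fibroblast markers and all 11 keratinocyte markers found in the table (of 12 listed) had a median above 1 CPM (counts scaled to the size of the library), COL1A1 at a median of 5320 CPM and KRT5 at 6974 CPM. One animal stood apart. In the A/A ram 835507 the summed level of the 10 wool follicle markers found in the table was 13043 CPM at the base, 3138 CPM at the mid-tail and 1020 CPM at the tip, whereas the other 18 values lay between 12746 and 34650 CPM. Its fibroblast sum was 5998 CPM at the tip, below the lowest of the other 18 values (7282 CPM), and its 7 smooth muscle markers summed to 3245 CPM at the tip, above the highest of them (2905 CPM). The 9 skeletal muscle markers found in the table summed to 190 CPM at its mid-tail and 322 CPM at its tip (highest of the others 139 CPM). DES, a muscle intermediate filament gene in both muscle lists, reached its highest level of the 21 (304 CPM) at the tip of this ram. Over the 21 values ACTA1 ranged from 4.41 to 25.1 CPM, TNNT3 reached 4.04 CPM and TNNI2 2.98 CPM. MYOG and PAX7 were at 0 in all 21, and MYH1, MYH2 and CKM stayed below 2 CPM. Further marker sums of this ram lay outside the other 18 values. The 7 endothelial markers summed to 607 CPM at the mid-tail and 552 CPM at the tip (highest of the others 455 CPM), and the 8 dermal papilla markers to 108 and 115 CPM (lowest of the others 195 CPM). The base of this ram was outside the others too, with a dermal papilla sum of 191 CPM. Its sebaceous gland sum was 1871 CPM at the base and 1872 CPM at the tip (highest of the others 1658 CPM). At its mid-tail the adipocyte sum was 1584 CPM (highest of the others 964 CPM), the immune sum 180 CPM (114 CPM) and the Schwann cell sum 175 CPM (165 CPM). The fibroblast sum was lower at the tip than at the base in every ram. Its median fell from 20048 to 12600 CPM in A/A and from 17721 to 8130 CPM in D/D. The keratinocyte sum was higher at the tip than at the base in every ram except 835507. The part of these shifts in the HOXD levels was not tested. In bulk tissue, fewer cells of a type and less RNA per cell cannot be told apart. Results that rest on ram 835507 are given with and without it.

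Along the tail, none of the 6 tested HOXD genes was called as changed. Between tip and base over both genotypes, 0 of 6 passed an adjusted p of 0.05 in the edgeR quasi-likelihood test with Benjamini-Hochberg adjustment, whereas 4.52% of all genes tested did. The log2 fold-changes ran from -0.32 for HOXD8 to 0.12 for HOXD11, with a median of -0.04 against -0.02 over all genes. The 95% interval of the difference was -0.59 to 0.42 for HOXD3, -0.33 to 0.49 for HOXD4 and -0.87 to 0.22 for HOXD8. For HOXD9, HOXD10 and HOXD11 it was -0.60 to 0.36, -0.51 to 0.53 and -0.58 to 0.83. Averaged over the 2 genotypes, a doubling or halving from base to tip thus lay outside all 6 intervals of this fit. Changes inside the intervals were not excluded with 7 rams. The intervals rest on the summed libraries. For HOXD11 the libraries numbered 1 alone gave 1.28 ± 0.59 (SE, n = 4) in A/A, and no interval over both genotypes was computed from them. Taken by genotype, the log2 fold-changes were above 0 for 5 of 6 genes in A/A and below 0 for all 6 in D/D. The A/A signs rested in part on ram 835507. Without it HOXD8, HOXD9 and HOXD10 were at -0.55, -0.27 and -0.20 in A/A, and HOXD3, HOXD4 and HOXD11 at 0.20, 0.15 and 0.39. Some intervals within a genotype did include a doubling or halving, such as HOXD11 in A/A (-0.52 to 1.34) and HOXD8 in D/D (-1.45 to 0.18). No tested HOXD gene was higher at the tip in all 7 rams (3.4% of all genes were) and none was lower in all 7 (3.79% were).

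**Figure D1:**
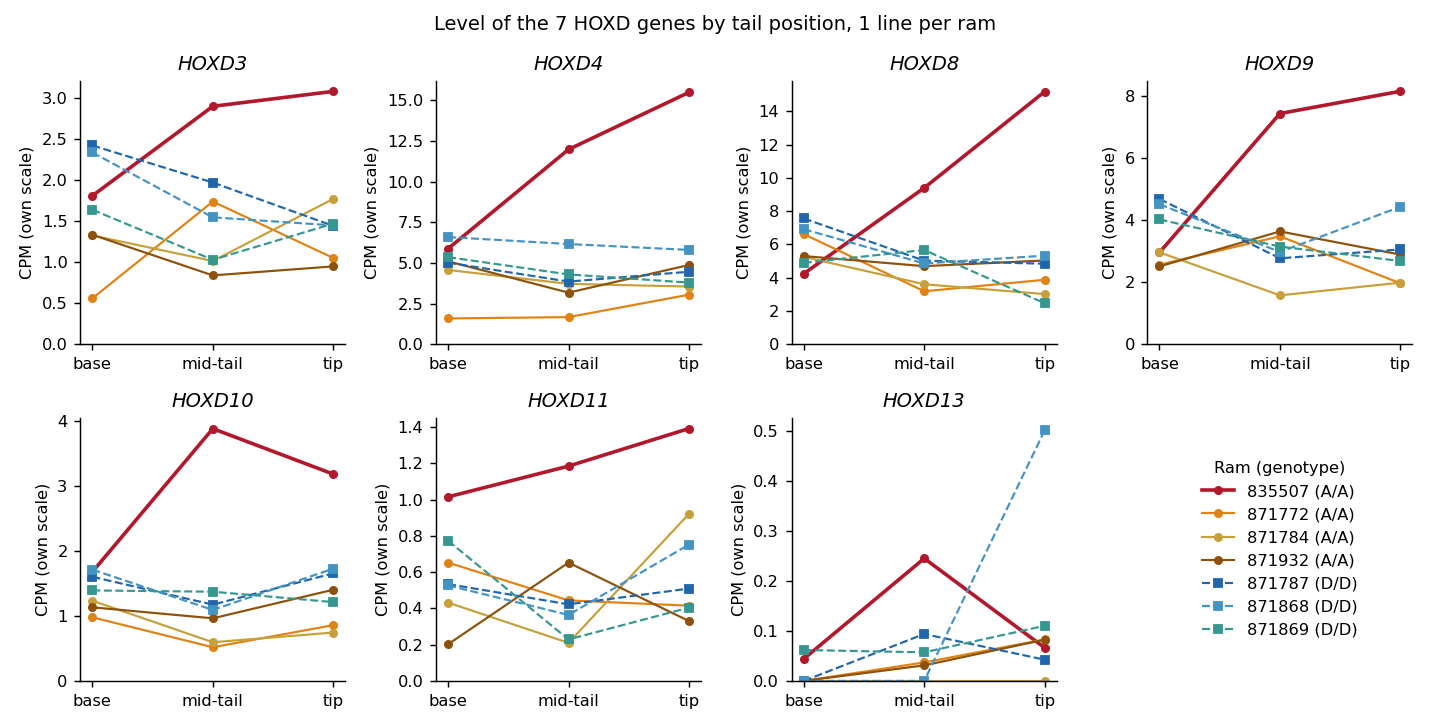
Level in library-scaled counts (CPM, vertical axis, own scale in each panel) of the 7 HOXD genes by tail position, where each line is a ram, solid with circles for A/A and dashed with squares for D/D. Ram 835507 (thick line) lies above all others at the mid-tail and tip in the panels of HOXD3, HOXD4, HOXD8, HOXD9, HOXD10 and HOXD11, and HOXD13 stays at or below 0.502 CPM.

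Within the A/A rams, 0 of 6 were called between tip and base (1.63% of all genes were), 0 of 6 between mid-tail and base (0.0257% of all genes) and 0 of 6 between tip and mid-tail (0% of all genes). Within the D/D rams the members called were again 0 of 6 for tip against base (0.566% of all genes), for mid-tail against base (0% of all genes) and for tip against mid-tail (0% of all genes). Between mid-tail and base over both genotypes 0 of 6 were called, beside 0.134% of all genes. None of these 8 comparisons between positions had a member at an unadjusted p under 0.05 in edgeR, and DESeq2 and limma-voom on the same ram sums also called 0.

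HOXD3 and HOXD4, the anterior genes of the set, were detected at each position in every ram. HOXD3 ranged from 0.559 to 2.42 CPM at the base, from 0.839 to 2.90 CPM at the mid-tail and from 0.949 to 3.08 CPM at the tip. It was higher at the tip than at the base in 3 rams, all of them A/A, and lower in the other 4. The HOXD3 log2 fold-change from base to tip was 0.35 ± 0.32 (SE, n = 4) in A/A and -0.52 ± 0.35 (SE, n = 3) in D/D. The difference between these changes was -0.87 ± 0.47 (SE, D/D against A/A), with an edgeR unadjusted p = 0.0851 and an adjusted p = 0.789.

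HOXD4, a gene known to respond to retinoic acid in the embryonic hindbrain, stood at 5.87, 1.58, 4.57 and 5.10 CPM at the base of the A/A rams 835507, 871772, 871784 and 871932. At their mid-tail it stood at 12.0, 1.67, 3.71 and 3.17 CPM, and at their tip at 15.5, 3.04, 3.54 and 4.87 CPM. Ram 835507 was above all D/D rams at the mid-tail and tip but within their range at the base, and ram 871772 was below them at all 3 positions. In the D/D rams 871787, 871868 and 871869 HOXD4 stood at 5.01, 6.59 and 5.35 CPM at the base, 3.85, 6.16 and 4.29 CPM at the mid-tail and 4.46, 5.80 and 3.79 CPM at the tip. It was thus lower at the tip than at the base in all 3 D/D rams and in 2 of 4 A/A rams. Its log2 fold-change from base to tip was 0.44 ± 0.26 (SE, n = 4, edgeR adjusted p = 0.464) in A/A and -0.28 ± 0.29 (SE, n = 3, edgeR adjusted p = 0.741) in D/D, and without ram 835507 the A/A value was 0.15 ± 0.24 (SE, n = 3).

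HOXD8, the central gene, was lower at the tip than at the base in 6 of 7 rams. At the base the A/A rams read 4.24, 6.62, 5.24 and 5.30 CPM and the D/D rams 7.56, 6.92 and 4.89 CPM, in the same order of rams. At the mid-tail they read 9.40, 3.18, 3.60 and 4.69 CPM, and 5.02, 4.85 and 5.66 CPM. At the tip they read 15.2, 3.87, 3.01 and 5.03 CPM, and 4.84, 5.32 and 2.46 CPM. The exception was ram 835507, in which the tip was 3.58 times the base, while in the other 6 rams the tip was 0.504 to 0.95 times the base. Within A/A its log2 fold-change was -0.01 ± 0.33 (SE, n = 4), and -0.55 ± 0.26 (SE, n = 3) without that ram. Over both genotypes the HOXD8 log2 fold-change was -0.32 ± 0.26 (SE, n = 7, edgeR adjusted p = 0.56). Without ram 835507 it was -0.59 ± 0.18 (SE, n = 6), with an unadjusted p = 0.00636 and an edgeR adjusted p = 0.0792, which did not pass the threshold. An exact sign-flip test of the within-ram differences gave p = 0.578 for the 7 rams and p = 0.0312 for the 6 rams without 835507 (two-sided, unadjusted, and the smallest p that 6 rams allow). The second p was fixed in advance, because the ram left out was the only one with the other direction.

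**Figure D2:**
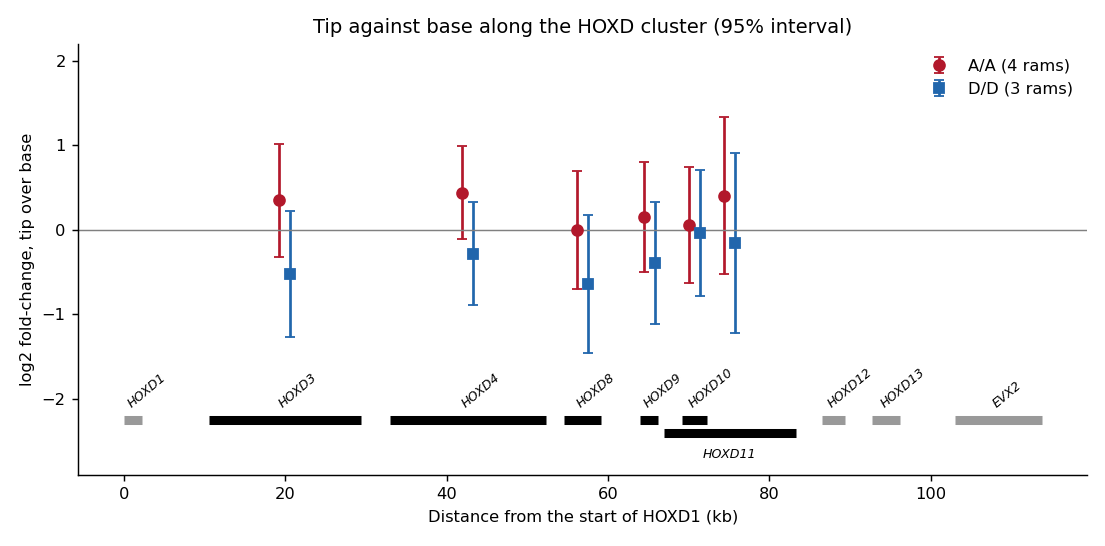
The log2 fold-change from base to tip (vertical axis) with its 95% interval for the 6 tested HOXD genes, placed at the middle of each gene by distance from the start of HOXD1 in kb (horizontal axis), with circles for A/A (4 rams) and squares for D/D (3 rams). Black bars under the points are the spans of tested genes and grey bars those too low to test. All 12 intervals include 0.

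HOXD9, the first of the genes related to the fly gene Abdominal-B, stood at 2.96, 2.56, 2.96 and 2.51 CPM at the base of the A/A rams and at 4.68, 4.51 and 4.02 CPM at the base of the D/D rams. The genotypes did not overlap at the base, and every A/A ram was below every D/D ram. The log2 difference of A/A against D/D was -0.68 ± 0.26 (SE, 4 against 3 rams), with an unadjusted p = 0.0254 and an edgeR adjusted p = 1.00. An exact permutation test gave p = 0.0286 (two-sided, unadjusted), the smallest that 4 against 3 rams allow. Among all 17738 genes tested at the base, 1.97% had every A/A ram below every D/D ram, beside 1 of 6 HOXD genes. At the mid-tail HOXD9 stood at 7.44, 3.48, 1.57 and 3.64 CPM in A/A and 2.77, 2.97 and 3.15 CPM in D/D, and at the tip at 8.16, 1.96, 1.98 and 2.89 CPM in A/A and 3.06, 4.43 and 2.68 CPM in D/D. The genotypes overlapped at both of these positions. From base to tip HOXD9 was lower in 5 of 7 rams, with a log2 fold-change of -0.12 ± 0.23 (SE, n = 7) over both genotypes and -0.33 ± 0.20 (SE, n = 6) without ram 835507.

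HOXD10 and HOXD11, which pattern the lumbosacral region and the limb together with their paralogs, were the lowest of the tested genes in counts. HOXD10 stood at 1.68, 0.979, 1.23 and 1.13 CPM at the base of the A/A rams and at 3.18, 0.858, 0.744 and 1.40 CPM at their tip. In the D/D rams it stood at 1.60, 1.71 and 1.39 CPM at the base and at 1.66, 1.73 and 1.21 CPM at the tip. The tip was within 1.24 times the base or lower in every ram except 835507, where it was 1.90 times the base. At the mid-tail HOXD10 was lower than at the base in 6 of 7 rams, from 0.482 to 0.986 times the base, and 2.31 times the base in ram 835507. Its log2 fold-change from base to mid-tail was -0.28 ± 0.24 (SE, n = 7, edgeR adjusted p = 0.729) and -0.56 ± 0.21 (SE, n = 6, edgeR adjusted p = 0.329) without that ram. HOXD11 ranged from 0.202 to 1.02 CPM at the base, from 0.210 to 1.18 CPM at the mid-tail and from 0.330 to 1.39 CPM at the tip, and was higher at the tip than at the base in 4 rams and lower in 3. Its counts differed between the 2 libraries in a way that went with position in A/A. Library 2 held fewer than library 1 at the mid-tail of every A/A ram. It also held fewer at every A/A tip except that of ram 871932 (4 and 4 counts). At the A/A base the direction was mixed (12 and 11, 9 and 5, 3 and 11, and 1 and 4 counts). Ram 835507 had 39 and 3 counts at the tip and 27 and 2 at the mid-tail, and ram 871784 had 23 and 3 at the tip. From base to tip in A/A its log2 fold-change was 0.41 ± 0.44 (SE, n = 4) from the summed libraries and 1.28 ± 0.59 (SE, n = 4) from the libraries numbered 1 alone, with an unadjusted p = 0.0457 and an edgeR adjusted p = 0.327.

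HOXD13, the last gene of the cluster, which patterns the digits and the genital tubercle, was near the limit of detection. At the base it had 3 counts in all, with 12 of 14 libraries at 0. At the mid-tail it had 11 counts, with 7 of 13 libraries at 0, and at the tip 29 counts, with 6 of 14 at 0. Of the 29 tip counts, 18 came from the D/D ram 871868, in which HOXD13 reached 0.502 CPM. The A/A rams had 2, 3, 0 and 2 counts at the tip and the D/D rams 1, 18 and 3, against 1, 0, 0 and 0, and 0, 0 and 2, at the base. The tip was above the base in 6 of 7 rams, and ram 871784 had 0 counts at all 3 positions. The ratio of tip to base in summed CPM was 8.86, with an exact interval of 2.75 to 45.5 (95%, covering counting error only). Without ram 871868 the ratio was 3.42, with an interval of 0.902 to 19.1. An exact sign-flip test of log2(CPM + 0.5) over the 7 rams gave p = 0.0312 (two-sided, unadjusted), at differences of at most 1.00 on that scale. In the edgeR fit without a filter on low counts, its log2 fold-change was 2.59 ± 1.07 (SE, n = 7), with an adjusted p = 0.258. HOXD13 was therefore counted as not judged rather than as changed or unchanged.

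Between the genotypes, 0 of 6 tested HOXD genes were called by edgeR at the base, mid-tail or tip, and 0% of all genes were called at each position. With all rams kept, only HOXD9 at the base had an unadjusted p under 0.05. DESeq2 and limma-voom on the same ram sums called 0 members at each of the 3 positions. At the base the 6 log2 differences of A/A against D/D ran from -0.75 for HOXD3 to -0.10 for HOXD11, with a median of -0.36 beside 0.01 over all genes. Without ram 835507 these differences ran from -0.97 for HOXD3 (edgeR unadjusted p = 0.0479, not called) to -0.17 for HOXD8. At the mid-tail they ran from -0.002 for HOXD8 to 0.84 for HOXD11, and without ram 835507 from -0.81 for HOXD10 to 0.33 for HOXD11. At the tip they ran from 0.03 for HOXD10 to 0.70 for HOXD8. Without ram 835507 the tip values for HOXD3, HOXD4 and HOXD8 were -0.19, -0.29 and -0.07. Those for HOXD9, HOXD10 and HOXD11 were -0.57, -0.61 and 4.58e-05. The change from base to tip in D/D against A/A was called for 0 of 6 HOXD genes and for 0% of all genes. Its values ran from -0.87 for HOXD3 to -0.09 for HOXD10, and edgeR gave no unadjusted p under 0.05. Without ram 835507 they were -0.73 for HOXD3, -0.44 for HOXD4, -0.09 for HOXD8, -0.12 for HOXD9, 0.16 for HOXD10 and -0.55 for HOXD11, and none was called by edgeR. With limma-voom 1 gene, HOXD3, had a limma unadjusted p = 0.0441 and adjusted p = 0.774.

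Some of the paralogs in the same rams gave another picture at the 5′ end. Of the 16 genes in the table that share a group number with the 7 HOXD genes, all 16 were tested, and 7 rose from base to tip over both genotypes while none fell. Of all genes, 4.52% were called in either direction. HOXA10 rose by a log2 fold-change of 1.13 ± 0.14 (SE, n = 7, edgeR adjusted p = 0.000361) and HOXC10 by 1.35 ± 0.15 (SE, edgeR adjusted p = 0.000134), whereas HOXD10 stood at 0.01 ± 0.25. HOXA11 rose by 1.47 ± 0.26 and HOXC11 by 1.13 ± 0.22 (edgeR adjusted p = 0.00396 and 0.00832), whereas HOXD11 stood at 0.12 ± 0.33. The HOXD11 value depended on the library, and in A/A it was 1.28 ± 0.59 (SE) from the libraries numbered 1 alone. Its ratios to the paralogs were not tested by library. HOXA9 also rose, by 0.65 ± 0.16 (edgeR adjusted p = 0.0291), as did HOXA13, by 2.50 ± 0.26, and HOXB13, by 6.40 ± 0.65 (edgeR adjusted p = 9.54e-05 for both). HOXB9, HOXC9 and HOXC13 were not called, and they were lower at the tip than at the base in 6, 4 and 5 of 7 rams. HOXC13 is also among the wool follicle markers used above, and in ram 835507 it stood at 88.5 CPM at the base and 22.7 CPM at the tip. In groups 3, 4 and 8 none of the 6 tested paralogs was called.

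**Figure D3:**
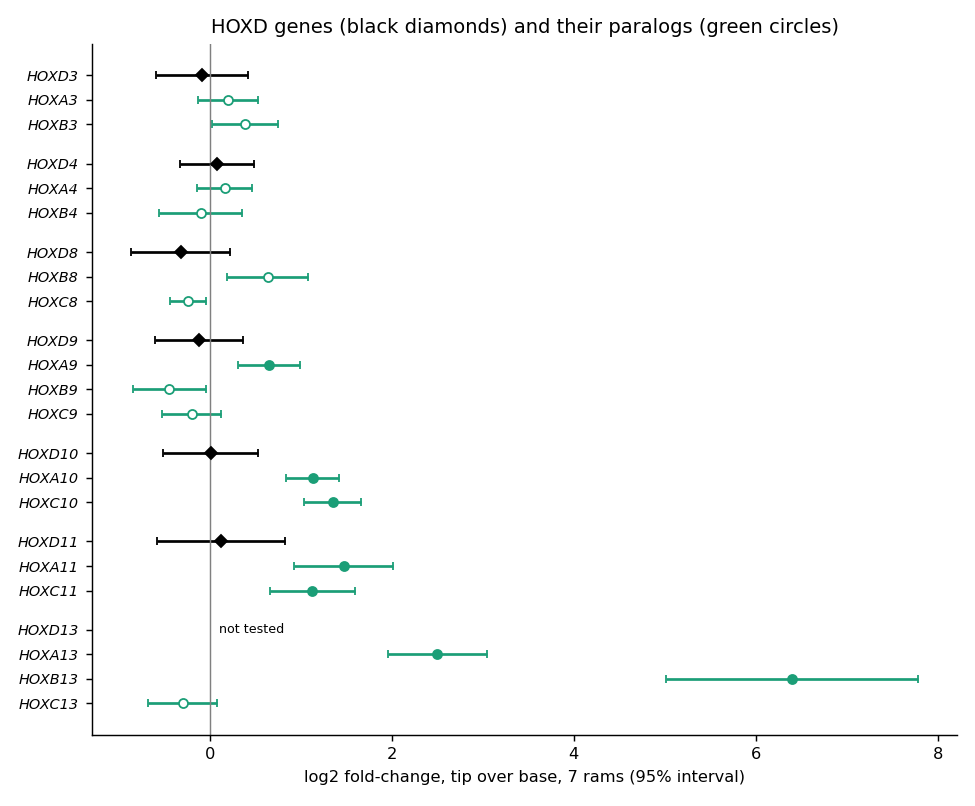
The log2 fold-change from base to tip over 7 rams (horizontal axis) with its 95% interval for the HOXD genes (black diamonds) and their paralogs in the HOXA, HOXB and HOXC clusters (green circles, filled where the adjusted p was under 0.05). The intervals of HOXD10 (-0.51 to 0.53) and HOXA10 (0.84 to 1.42) do not meet, and HOXD13 was not tested.

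The difference between a HOXD gene and its paralog was tested itself, as the change of their ratio from base to tip within each ram, a comparison chosen after the values were seen. There were 13 such pairs. The ratio of HOXD10 to HOXA10 was lower at the tip in 7 of 7 rams, by a mean of -1.04 ± 0.52 on the log2 scale (SD, n = 7), with an exact sign-flip p = 0.0156, the smallest that 7 rams allow, and 0.0677 after Benjamini-Hochberg adjustment over the 13 pairs. HOXD10 to HOXC10 changed by -1.25 ± 0.48 and HOXD11 to HOXA11 by -1.10 ± 0.27 (SD, n = 7), each lower in 7 of 7 rams with the same exact p and adjusted p. HOXD11 to HOXC11 was lower in 6 of 7 rams, with a mean of -0.84 ± 0.68 (SD, n = 7, exact p = 0.0312, adjusted p = 0.102). None of the 13 pairs passed 0.05 after adjustment. Since no exact p with 7 rams is below 0.0156, a pair at that floor could not pass the adjustment over 13 pairs by itself. The adjusted p therefore cannot decide on a single pair. Ram 835507 had the same direction in these 4 pairs, and without it the means were -1.19, -1.39, -1.13 and -0.76.

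**Figure D4:**
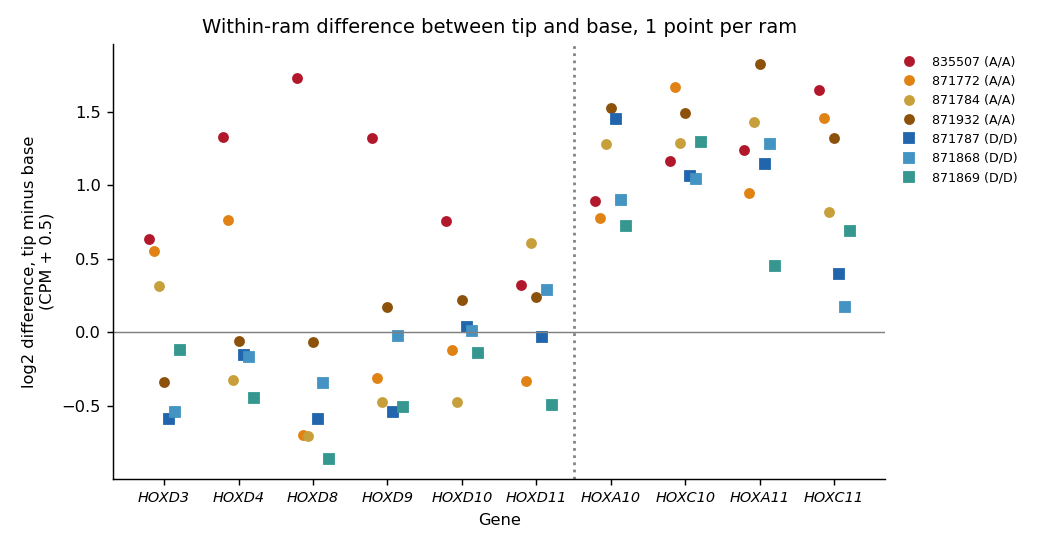
The within-ram log2 difference of CPM + 0.5 between tip and base (vertical axis), 1 point per ram, circles for A/A and squares for D/D, for the 6 tested HOXD genes (left of the dotted line) and 4 paralogs (right). The points of HOXA10, HOXC10, HOXA11 and HOXC11 are all above 0, and those of each HOXD gene lie on both sides of 0.

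For 4 of the HOXD genes the widest differences from the base were those of ram 835507. In it HOXD4, HOXD8, HOXD9 and HOXD10 were 2.04, 2.22, 2.51 and 2.31 times their base level at the mid-tail and 2.64, 3.58, 2.76 and 1.90 times at the tip. Summed over the 7 genes, its level was 17.6 CPM at the base, 37.0 CPM at the mid-tail and 46.5 CPM at the tip, whereas the other 6 rams lay between 10.7 and 22.6 CPM at every position. The part of the marker sums given above for these samples in that result (low for wool follicle and dermal papilla, high for smooth muscle and endothelium) was not tested. HOXD10, HOXD11 and HOXD13 together made up a median of 10.6% of the HOXD counts in base skin, 10.5% in mid-tail skin and 13.8% in tip skin, within ranges of 8.57% to 15.5%, 7.52% to 14.3% and 9.97% to 14.9%. HOXD3 and HOXD4 together made up a median of 38.6%, 38.0% and 37.4%.

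The 6 tested genes moved together across the 21 ram sums, with Pearson's r of log2(CPM + 0.5) between 0.45 and 0.86 (median 0.68) over their 15 pairs. Over the 18 sums without ram 835507 r ran from -0.10 to 0.70 (median 0.36), so a large share of this likeness rested on that ram. These sums share rams and libraries, and r is given as a description. Among 12926 named genes, the genes closest to HOXD9 were RBPMS (r = 0.92, and 0.80 without ram 835507), FGD5 (0.89 and 0.86) and ESAM (0.89 and 0.83), the last an adhesion molecule of endothelial junctions. Closest to HOXD8 were GREM1, a secreted BMP antagonist (0.84 and 0.75), STOM (0.83 and 0.65) and RGS6 (0.81 and 0.76). For HOXD4 they were HOXD10 (0.86 and 0.70), METTL3, an RNA methyltransferase (0.86 and 0.82), and ZFP2 (0.85 and 0.68), and for HOXD10 they were ATOH8 (0.90 and 0.76), HOXD4 and FTCDNL1 (0.84 and 0.61). HOXD3 was closest to ANKRD16 (0.84 and 0.76), CCDC8 (0.84 and 0.73) and MAU2 (0.80 and 0.66), and HOXD11 to KANK4 (0.80 and 0.58), TBC1D2B (0.79 and 0.54) and RNF213 (0.78 and 0.50).

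The partners and surroundings of the HOXD genes were read in the same fit of tip against base over both genotypes, in which 4.52% of all genes were called. Of 9 HOX cofactors of the PBX, MEIS and PKNOX families, 1 fell from base to tip over both genotypes, PKNOX2 by a log2 fold-change of -0.54 ± 0.13 (SE, n = 7, edgeR adjusted p = 0.0332), and none rose. Of the 17 tested genes that flank the cluster, 1 fell, the limb-bud transcription factor gene SP9 (-1.96 ± 0.27, edgeR adjusted p = 0.000741), and none rose. Of 20 Polycomb and Trithorax genes, which keep HOX genes silent or active, none was called in that comparison in edgeR. Of 16 tested genes of the retinoic acid pathway, 1 fell, ALDH1A3, which makes retinoic acid (-0.65 ± 0.10, edgeR adjusted p = 0.00166). Of 20 tested limb genes tied to the posterior HOXD genes, 1 rose, TBX3 (1.06 ± 0.13, edgeR adjusted p = 0.000361), and 3 fell, among them the transcription factor gene SIX2 (-1.36 ± 0.29, edgeR adjusted p = 0.0144) and SHH, a secreted morphogen of the limb and hair follicle (-1.15 ± 0.29, edgeR adjusted p = 0.0321). The long noncoding RNA LOC105610367, which lies between HOXD4 and HOXD8 and overlaps the ends of both, had 39 counts in 21 of 41 libraries and was too low to test.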

How the data were processed

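Total RNA was selected on oligo(dT) beads, made into libraries with the Lexogen CorALL kit and sequenced in pairs. According to the methods of the study, the authors checked reads with FastQC 0.11.9, aligned them with ContextMap 2 and BWA to ARS-UI_Ramb_v3.0 and counted them per RefSeq gene with strand-specific featureCounts (its version is not given in the sources used here), so the deposited values are raw read counts. The deposited tip columns were recorded here as estimated counts because of their names alone, held whole numbers and were not rounded. The libraries of each ram were summed within a position. Whether the 2 libraries came from separate biopsies is not stated in the sources used here. They differed by 14.6 to 128 times sampling noise. Genes were filtered with filterByExpr (smallest count 10) and fitted with edgeR 4.0.16 (R 4.3.3, TMM) by genotype and position with the ram as a block, as the study did, or between genotypes at each position. Deviations of same-ram sums correlated above 0.1 in 20 of 21 pairs of positions of the same animal. DESeq2 1.42.0 and limma 3.58.1 were alternatives. The scripts were tested on simulated data. CPM are TMM-scaled. Between positions, the p-values measure how far the changes within rams differ from ram to ram. Between genotypes, they measure the spread of levels between rams. Exact sign-flip tests (128 assignments) and permutation tests (35 assignments) were two-sided on log2(CPM + 0.5), for 7 genes in 3 contrasts of positions and at 3 positions each, and are given unadjusted. All 7 HOXD genes were named, with the 3 genes of highest r for each tested one (mean of at least 1 CPM) and at most 3 called genes of other lists with the smallest p. Members and lists were chosen with earlier results of these data known.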

Additional observations from a re-analysis of the deposited data

Results flagged for a closer look

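Among the 4 A/A rams at each position, 4 values of the tested HOXD genes lay farther from the rest than Dixon's critical value at the 95% level for 4 samples allows, and all 4 belonged to ram 835507. At the tip these were HOXD4 (15.5 CPM, a gap to the next ram of 0.853 of the group's range), HOXD8 (15.2 CPM, 0.834) and HOXD9 (8.16 CPM, 0.851), and at the mid-tail HOXD10 (3.88 CPM, 0.868). Chance flags about 1 in 20 groups, and the genes share the ram and its libraries. The marker sums of these samples are given with the levels, and their part in the result was not tested.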

How the results depend on the processing

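The number of HOXD genes called was 0 in all 12 comparisons and stayed 0 under the alternatives run for each: DESeq2 and limma-voom, RLE size factors, library totals, no filter or at least 1 CPM in 3 ram sums, libraries numbered 1 only, single libraries, each genotype on its own, and each ram left out (range 0 to 0). Without the ram block it was 0, and with the library number as a replicate block it was also 0. Without the ram block HOXD8 from base to tip in A/A was 0.34, and with the library number as a block 0.40, against -0.01. Without ram 835507 it was -0.55, and HOXD9 was -0.27. With libraries numbered 1 only, HOXD11 from base to tip in A/A was 1.28 against 0.41. The exact p of HOXD11 to HOXC11 was 0.0625 without any 1 ram except 871868, and with 6 rams no exact p can be below 0.0312. Leaving out 1 ram brought 3 other ratios to that p: HOXD4 to HOXB4 without 871787, and HOXD8 to HOXC8 (-0.30) and HOXD9 to HOXA9 (-1.03) without 835507. In each of these the ram left out was the only one with the other direction, which fixed the p at its minimum. The lowest adjusted p of any HOXD gene over all alternatives was 0.0792, for HOXD8 without ram 835507. The counts of HOXD11 and HOXD13, and 3 to 4 rams in a genotype, limit what could be detected.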
